A study of Ovis aries with 6 samples.

Results

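MX1, MX2, ISG15, RSAD2, BST-2A, IRF7 and IFI6 are genes that cells switch on in response to interferon, and they were read here in single cells of the Hu sheep ovary. They are 7 of the 30574 genes in the count matrices. They were listed by name and chosen with earlier readings of the same cells in view, and a cell was counted as carrying the set when at least 3 of the 7 had a unique molecular identifier (UMI, 1 captured RNA molecule). Levels across cell groups and ewes, and the shares of such cells, are therefore a description, with no test. At least 3 members were detected in 2632 of 36457 retained cells.

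The cells came from 1 ovary of each of 6 Hu ewes in estrus, cut up whole, digested with collagenase and trypsin and read with 10x Chromium 3′ chemistry. The HLS group (n = 3) held ewes with a litter size of at least 3, and the LLS group (n = 3) ewes with a litter size under 2. Each ewe gave 1 library, so a difference between ewes and a difference between libraries cannot be told apart. A p-value below measures the spread among 3 ewes a group. The libraries held between 43329214 and 75549906 UMI, and the lowest total was that of LLS replicate 2. The median retained cell held between 5191 UMI, in LLS replicate 2, and 9651 UMI, in LLS replicate 1. Any 2 libraries shared between 5 and 17 retained barcodes.

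Interferons are secreted proteins that signal through receptors on the cell surface to the kinases JAK1 and TYK2 and to transcription factors such as STAT2 and IRF9, and these switch on a large set of genes. Type I interferons act this way in nearly all cells, and interferon gamma acts through a receptor of its own. In ruminants the set is well known in the uterus and the corpus luteum, where it answers interferon tau from the conceptus. IRF7 is a transcription factor that amplifies type I interferon production, MX1 and MX2 are dynamin-like GTPases that block viruses, ISG15 is a ubiquitin-like modifier, RSAD2 (viperin) is an antiviral enzyme, BST-2A (a tetherin) holds budding virus at the membrane, and IFI6 is a small membrane protein that restrains apoptosis.

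Cells were grouped by clustering that left out the members and the other listed interferon genes found by symbol, and groups were named from markers. Listed genes present under another name, and induced genes on no list, could still take part. There were 14790 endothelial-like cells, 5727 stromal-like cells (theca-like cells among them), 2895 immune-like cells, 2756 granulosa-like cells and 2691 perivascular-like cells. Another 4972 cells, most of them in a cluster led by ACTA2 and TAGLN, stayed unnamed, and 5 smaller groups held the rest. The endothelial markers summed to between 39.1 and 57.4 UMI per 10000 in endothelial-like cells and to between 1.005 and 1.565 in granulosa-like cells. The granulosa-like group joined 2 clusters that differed. Cluster 6 (1898 cells), led by IL17RB, IGFBP2 and NMB, held granulosa markers at 20.7 to 46.0 UMI per 10000. Cluster 14 (858 cells), led by GCG, TIMP1 and SERPINA1, held them at 5.60 to 8.86. Cluster 14 held FSHR, the follicle-stimulating hormone receptor, at 0.581 to 1.10 against 0.911 to 1.51 in cluster 6, and INHBB at 0.900 to 1.4995 against 0.486 to 1.97. INHA was at 0.0576 to 0.239 against 1.64 to 11.4, and CYP19, which makes oestrogen, was at 0 in cluster 14. Medians over ewes of CDH2, INHBA and FOXL2 were 3.38, 1.31 and 0.609, against 4.74, 2.42 and 1.22 in cluster 6. Those of FST, AMH and HSD17B1 were 0.387, 0.0556 and 0.149, against 8.11, 1.16 and 2.83. Stromal markers summed to 9.76 to 18.0 in cluster 14, against 99.8 to 192 in the stromal-like cluster 4. That sum exceeded its granulosa markers in all 6 ewes, but it lay mostly in DCN, LUM and PDGFRA. Their medians over ewes were 5.82, 2.89 and 1.495, against 1.14, 0.256 and 0.0813 in cluster 6. COL1A1, COL1A2 and TCF21 had medians of 0.618, 0.337 and 0.0231, against 1.15, 0.471 and 0.0190 in cluster 6. In cluster 4 they were 62.8, 31.5 and 1.83, and DCN, LUM and PDGFRA were 33.9, 14.2 and 2.28. PDGFRA overlapped, at 0.682 to 2.10 in cluster 14 and 1.32 to 2.84 in cluster 4. The sums therefore do not settle whether cluster 14 is nearer to stromal or to granulosa cells. Epithelial markers summed to 1.41 to 6.09 in cluster 14, against 0.119 to 0.736 in cluster 6 and 26.2 to 47.0 in epithelial-like cells. No gene of the granulosa marker list used here was among the 10 leading genes of cluster 14. HTRA3, which the paper reports as a marker of mural granulosa cells, was among them but is not on that list. The name is therefore weak and its values are given by cluster number. The granulosa-like group is to be read as the sum of clusters 6 and 14.

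Most cells carried no member or a single member. None of the 7 was detected in 15794 cells (43.3%), 1 in 13504 (37.0%) and 2 in 4527 (12.4%). At the threshold, cells with 2 members held a median of 3 member UMI among 9831 UMI in all, and the 1581 cells with 3 members held a median of 5 among 11538. All 7 were detected in 37 cells, and these held a median of 85 member UMI. The ewes were unevenly represented along this scale. LLS replicate 2 gave 13.97% of the cells with no member, 14.5% of those with 3, 38.8% of those with 5, 63.2% of those with 6 and 86.5% of those with all 7. Those 32 cells of LLS replicate 2 lay in cluster 14 (10 cells), macrophage-like cluster 13 (20 cells) and lymphocyte-like cluster 7 (2 cells).

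Of all cells, HLS replicates 1, 2 and 3 had at least 3 members in 6.93%, 4.18% and 5.51%. For LLS replicates 1, 2 and 3 it was 5.26%, 10.6% and 11.01%, so LLS replicates 2 and 3 stood above the other 4. These cells were of different kinds in those ewes. In LLS replicate 3, 573 of 781 (73.4%) were endothelial-like and 6 were granulosa-like. In LLS replicate 2, 76 of 551 (13.8%) were endothelial-like, 181 (32.8%) granulosa-like and 207 (37.6%) immune-like. Over the 5 other ewes together, endothelial-like cells made up 71.8% and granulosa-like cells 1.39%. The make-up of all cells differed as well. Endothelial-like cells were 1525 of 5189 in LLS replicate 2, 3440 of 7096 in LLS replicate 3 and 14790 of 36457 over all ewes. Granulosa-like cells were 603 of 5189 in LLS replicate 2 and 2756 of 36457 over all ewes. Depth was not matched in these counts.

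**Figure D1:**
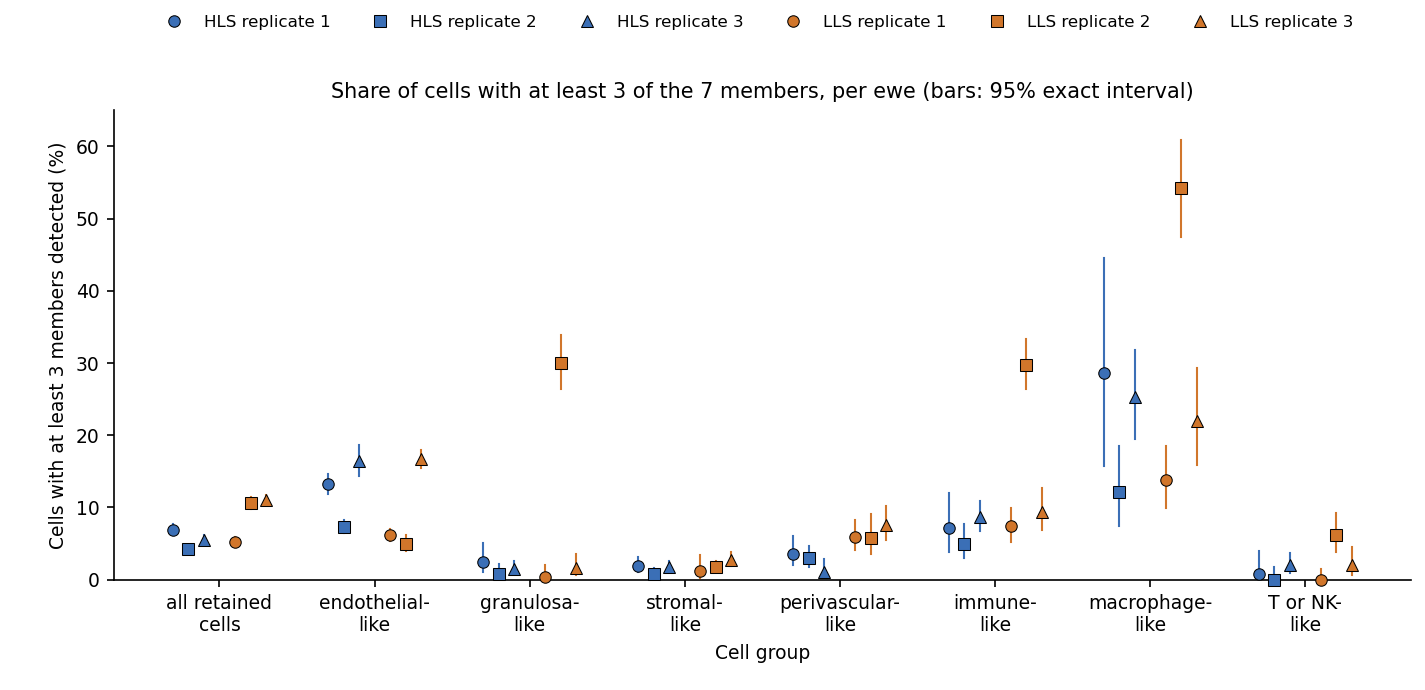
Percentage of cells with at least 3 of the 7 members in each ewe (vertical axis), by cell group (horizontal axis). Points are ewes, blue for HLS and orange for LLS, and bars are 95% exact binomial intervals, which cover counting error only. LLS replicate 2 stands at 30.02% in granulosa-like cells and 54.2% in macrophage-like cells, and at 4.98%, the lowest of the 6, in endothelial-like cells.

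In granulosa-like cells the share was 30.02% in LLS replicate 2 (181 of 603 cells, 95% Clopper-Pearson interval 26.4 to 33.8%). In the other 5 ewes it lay between 0.377% and 2.47%, and the highest upper bound among them was 5.03%, in HLS replicate 1. The difference lay in cluster 14. There 172 of 272 cells of LLS replicate 2 carried at least 3 members, which is 63.2%, against 1.09% to 3.50% in the other ewes. In cluster 6 the share in LLS replicate 2 was 2.72%, against 0% to 1.56%. Depth differed between these clusters, since the median cell of LLS replicate 2 held 12702 UMI in cluster 14 and 4761 in cluster 6. After each cell was thinned to 2000 UMI, which left out shallower cells, 35.3% of the cells of LLS replicate 2 in cluster 14 still carried at least 3 members, against 0% to 0.515% in the other ewes. For comparison within the same library, the share in endothelial-like cluster 15, led by CCL21, MMRN1 and RELN, was 0.439% (1 of 228 cells, median 4439 UMI), and MX1 there was 0.134 UMI per 10000, inside the 0.0302 to 0.279 of the other ewes. ISG15 (0.0858) and IRF7 (0.172) were inside the others' range as well, whereas LLS replicate 2 was the highest ewe there for MX2 (0.0191, others at 0), RSAD2 (0.0286, others at most 0.00466), BST-2A (0.0477, others at 0) and IFI6 (0.162, others at most 0.122).

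The cells of cluster 14 that carried the set in LLS replicate 2 held the markers of their neighbours at like levels. Granulosa markers summed to 8.30 UMI per 10000 in the 172 cells with at least 3 members and to 9.37 in the 100 with fewer. The 17 immune markers summed to 0.224 and 0.259, and 6 of them (CD69, CD3D, CD2, CD7, NKG7 and C1QB) were at 0 in the former. The same immune list summed to between 48.0 and 84.1 in immune-like cells. The 172 cells were deeper, with a median of 14715 UMI against 9088.

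Immune-like cells of LLS replicate 2 stood apart as well, with 29.7% (207 of 696) against 4.99% to 9.43% in the other ewes. Macrophage-like cluster 13, which holds C1QA, C1QB and C1QC, carried the set most often of the larger immune clusters. Its share was 28.6%, 12.2% and 25.2% for HLS, and for LLS it was 13.8%, 54.2% and 22.0%. At 2000 UMI a cell the same shares were 44.7% in LLS replicate 2 and 1.39% to 6.71% in the others. T or NK lymphocyte-like cluster 7 reached 6.18% in LLS replicate 2 and 0% to 2.00% in the others. Dendritic-like cluster 23, led by PLAC8, LY6E and LAMP3, came almost wholly from that ewe (131 of 155 cells), of which 48.9% carried at least 3 members. HLS replicate 3 had 13 cells there and LLS replicate 3 had 10, and the share was 0% in both. No gene of the dendritic marker list was among the 10 leading genes of cluster 23, so its name is weak, like that of cluster 14.

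**Figure D2:**
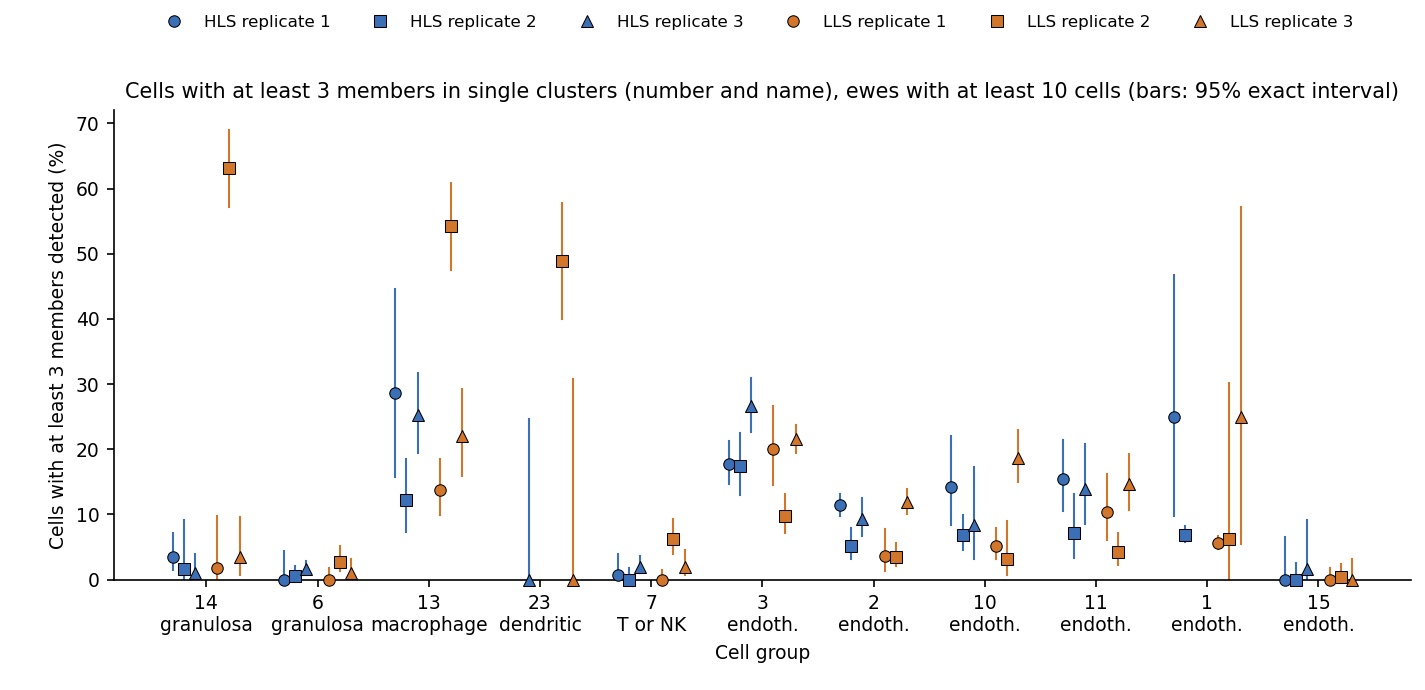
Percentage of cells with at least 3 of the 7 members in single clusters (horizontal axis, cluster number and name), for ewes with at least 10 cells there. Points are ewes, blue for HLS and orange for LLS, and bars are 95% exact intervals. LLS replicate 2 is far above the rest in clusters 14, 13 and 23 but not in cluster 6 or in any endothelial cluster.

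Endothelial-like cells carried the set in every ewe, with 13.2%, 7.29% and 16.4% in HLS and 6.13%, 4.98% and 16.7% in LLS. The groups overlapped over most of their range. Endothelial clusters differed among themselves. Cluster 3, led by CXCL9, IL6 and SELP, held the set in 9.84% to 26.6% of cells, and cluster 15 in 0% to 1.69%. At 2000 UMI a cell these shares were 0.184% to 2.05% in cluster 3 and 0% in cluster 15. Depth also differed, since the medians of endothelial-like cells ran from 5299 UMI in LLS replicate 2 to 11327 in LLS replicate 1. At 2000 UMI a cell the share fell to 0.424% in LLS replicate 2 and 0.146% in HLS replicate 1, with 2.05% in LLS replicate 3, so LLS replicate 3 stayed the highest and LLS replicate 2 was no longer the lowest. Over all ewes together the share fell at that depth from 10.6% to 0.725% in endothelial-like cells and from 4.57% to 1.31% in perivascular-like cells. In immune-like cells it fell from 13.1% to 7.28%, with 23.5% in LLS replicate 2. Endothelial-like cells thus stood above perivascular-like cells in these pooled shares only before thinning. The share in stromal-like cells was between 0.815% and 2.74% before thinning.

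Perivascular-like cells were the 1 large group in which the HLS and LLS ewes did not overlap at the threshold of 3 members. For at least 2 members they overlapped, with 20.6% in HLS replicate 1 and 19.8% in LLS replicate 1. For at least 4 the nearest ewes were HLS replicate 3 (0.556% of 360 cells) and LLS replicate 3 (0.599% of 501 cells), which are few cells in each. The share was 3.61%, 2.96% and 1.11% in HLS and 5.90%, 5.83% and 7.58% in LLS, at medians of 2735 to 4632 UMI in HLS and 2920 to 4072 UMI in LLS. These shares rested on 14, 18 and 4 cells in HLS and 31, 18 and 38 in LLS. At 2000 UMI a cell the HLS shares were 1.16%, 0.215% and 0% (4, 1 and 0 cells). The LLS shares were 1.97%, 2.26% and 2.43% (8, 6 and 9 cells). The difference was -3.88 percentage points with all ewes and -4.18 without LLS replicate 2. The group joins cluster 8, led by RGS5, and cluster 12, led by LOC101103739 and CLDN10, in unequal parts, since cluster 8 held 73 of 360 cells in HLS replicate 3 and 227 of 309 in LLS replicate 2. Within cluster 8 the shares were 4.73%, 5.61% and 4.11% in HLS and 9.87%, 7.49% and 11.05% in LLS, again without overlap, and within cluster 12 they were 0% to 1.22%. Cluster 8 is the larger part of the group, so its values are not separate from those of the group.

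IRF7, the transcription factor, was read at 0.380, 0.107 and 0.359 UMI per 10000 in endothelial-like cells of the HLS ewes and at 0.0922, 0.287 and 0.490 in those of the LLS ewes. HLS replicate 2 and LLS replicate 1 were the low ewes. Both also held most of their endothelial-like cells (1750 of 3045 and 2230 of 3312) in cluster 1, led by FAM167B, COL15A1 and ESM1, where IRF7 stood at 0.0652 and 0.0679 in these ewes. They were also the lowest ewes within cluster 2 (0.235 and 0.244, others 0.321 to 0.476) and cluster 3 (0.291 and 0.325, others 0.379 to 0.613). In clusters 11 and 15, by contrast, HLS replicate 3 (0.0762 and 0.0699) lay below HLS replicate 2 (0.118 and 0.0894). The part of cluster make-up was not tested. In granulosa-like cells IRF7 was 0.235 in LLS replicate 2 and 0.0338 to 0.120 in the others. In immune-like cells it was 1.46 in LLS replicate 2 and 0.146 to 0.381 in the others. Within the immune-like cells of LLS replicate 2, IRF7 reached 4.11 in cluster 23 and was 0.650 in macrophage-like cells. Luteal-like cells, of which 103 of 104 came from LLS replicate 3, held IRF7 at 2.66 in that ewe.

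MX1 showed the separation of LLS replicate 2 most plainly. In granulosa-like cells it was 0.396, 0.0820 and 0.127 UMI per 10000 for HLS, and for LLS 0.0665, 5.32 and 0.182. LLS replicate 2 was thus 13.5 times the next ewe, and its 3018 UMI were 90.1% of all MX1 UMI in these cells. Within cluster 14 it reached 8.15, against 0.0668 to 0.458, and within cluster 6 it was 0.402, against 0.0490 to 0.242. In immune-like cells MX1 was 0.365, 0.278 and 0.475 in HLS and 0.252, 4.52 and 0.606 in LLS. In endothelial-like cells, by contrast, it was 0.414, 0.488 and 0.736 in HLS and 0.462, 0.538 and 1.02 in LLS, so LLS replicate 2 lay inside the range of the others there.

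MX2, the paralog that neighbours MX1 in the RefSeq annotation of assembly ARS-UI_Ramb_v3.0, was sparse, with 1260 UMI in all. Immune-like cells held 43.1% of them, and LLS replicate 2 gave 60.6% of that part. Without that ewe, endothelial-like cells held more MX2 UMI (272) than immune-like cells (214). The MX2 level in immune-like cells was 0.226, 0.0638 and 0.306 in HLS and 0.130, 0.946 and 0.239 in LLS. In cluster 14 it was 0.755 in LLS replicate 2 and 0.138 in HLS replicate 1, and 3 of the other 4 ewes had no UMI. The 43 MX2 UMI of granulosa-like cells in HLS replicate 1 lay in 1.06% of its 283 such cells. The ratio of MX1 to MX2 UMI was 3.66 among immune-like cells, 10.3 among granulosa-like cells and 29.9 among endothelial-like cells. LLS replicate 2 gave most of these UMI in granulosa-like and immune-like cells, and without it the ratios were 1.93, 6.78 and 29.3. Reads that fit both genes could have been dropped or split by the counting, so these ratios are uncertain.

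ISG15, the ubiquitin-like modifier, followed MX1. In granulosa-like cells it was 0.143, 0.0498 and 0.0676 in HLS and 0.0302, 1.91 and 0.0684 in LLS. In immune-like cells it was 0.148, 0.551 and 0.311 in HLS and 0.264, 4.12 and 0.581 in LLS. LLS replicate 2 was 13.3 and 7.09 times the next ewe in these groups. In endothelial-like cells its 0.280 was inside the range of 0.156 to 0.595 of the others. Over 30 sums of an ewe and a cell group the log2 levels of ISG15 and MX1 had a Pearson correlation of 0.920, which is a description only, since sums of an ewe share a library and depth.

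RSAD2, viperin, lay more in endothelial-like cells than MX1 did. Endothelial-like cells held 67.7% of its 5141 UMI, at 0.1604 to 0.399 UMI per 10000, and 48.2% of the 17739 MX1 UMI. LLS replicate 2 gave 21.0% of all RSAD2 UMI and 32.6% of all MX1 UMI, and its part in this contrast was not tested. In unnamed cluster 25 (131 cells), led by LOC101103771, S100A8 and S100A9, RSAD2 stood at 0.731 to 5.01 in 5 ewes. In lymphocyte-like cluster 7 it was 0.316, 0.388 and 0.588 in HLS and 0.0657, 1.68 and 0.542 in LLS, and in macrophage-like cells it was 0.0490 to 0.325 outside LLS replicate 2 and 1.98 in that ewe. In granulosa-like cells RSAD2 was 0.476 in LLS replicate 2 and at most 0.0410 elsewhere. In cluster 23 of LLS replicate 2 it was only 0.0225, although MX1 stood at 4.16 there.

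BST-2A, the tetherin, was the member most restricted to immune-like cells, which held 60.9% of its 1786 UMI. Its level there was 0.261, 0.308 and 0.427 in HLS and 0.533, 1.89 and 0.419 in LLS. In endothelial-like cells it was at most 0.0228. In cluster 14 it was 1.09 in LLS replicate 2, against 0 to 0.102 in the others. LLS replicate 2 gave 62.9% of all its UMI. BST-2B, its near copy and neighbour, had 826 UMI and was detected in 697 cells, against 719 with BST-2A and 137 with both. Reads that fit both copies could have been dropped or split, so the BST-2A values are uncertain in the same way as those of MX2.

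IFI6 was also highest in LLS replicate 2 in macrophage-like cells, at 13.9 against 1.36 to 3.70 in the other ewes, but it had high levels outside immune-like and granulosa-like cells in every ewe. It was read at 5.09, 3.71 and 2.43 UMI per 10000 in perivascular-like cells of HLS and at 3.52, 4.79 and 3.998 in those of LLS. Stromal-like cells held 1.68, 1.08 and 1.98 in HLS and 1.64, 1.89 and 1.80 in LLS, and endothelial-like cells only 0.161 to 0.709. Stromal-like clusters differed, with IFI6 at 2.84 to 10.7 in cluster 9, led by SERPINF1 and DPT. It was 1.14 to 2.59 in cluster 4 and 0.228 to 0.756 in theca-like cluster 5. The ewes overlapped in all these groups. In cluster 14 it was 10.1 in LLS replicate 2, but LLS replicate 3 also stood high at 5.39, against 0.214 to 1.18 in the other 4, and LLS replicate 3 had no such rise in MX1 (0.0668) or ISG15 (0.0134). Its correlation with the 6 others over the 30 sums was between -0.0386 and 0.415, against 0.513 to 0.920 among those 6.

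**Figure D3:**
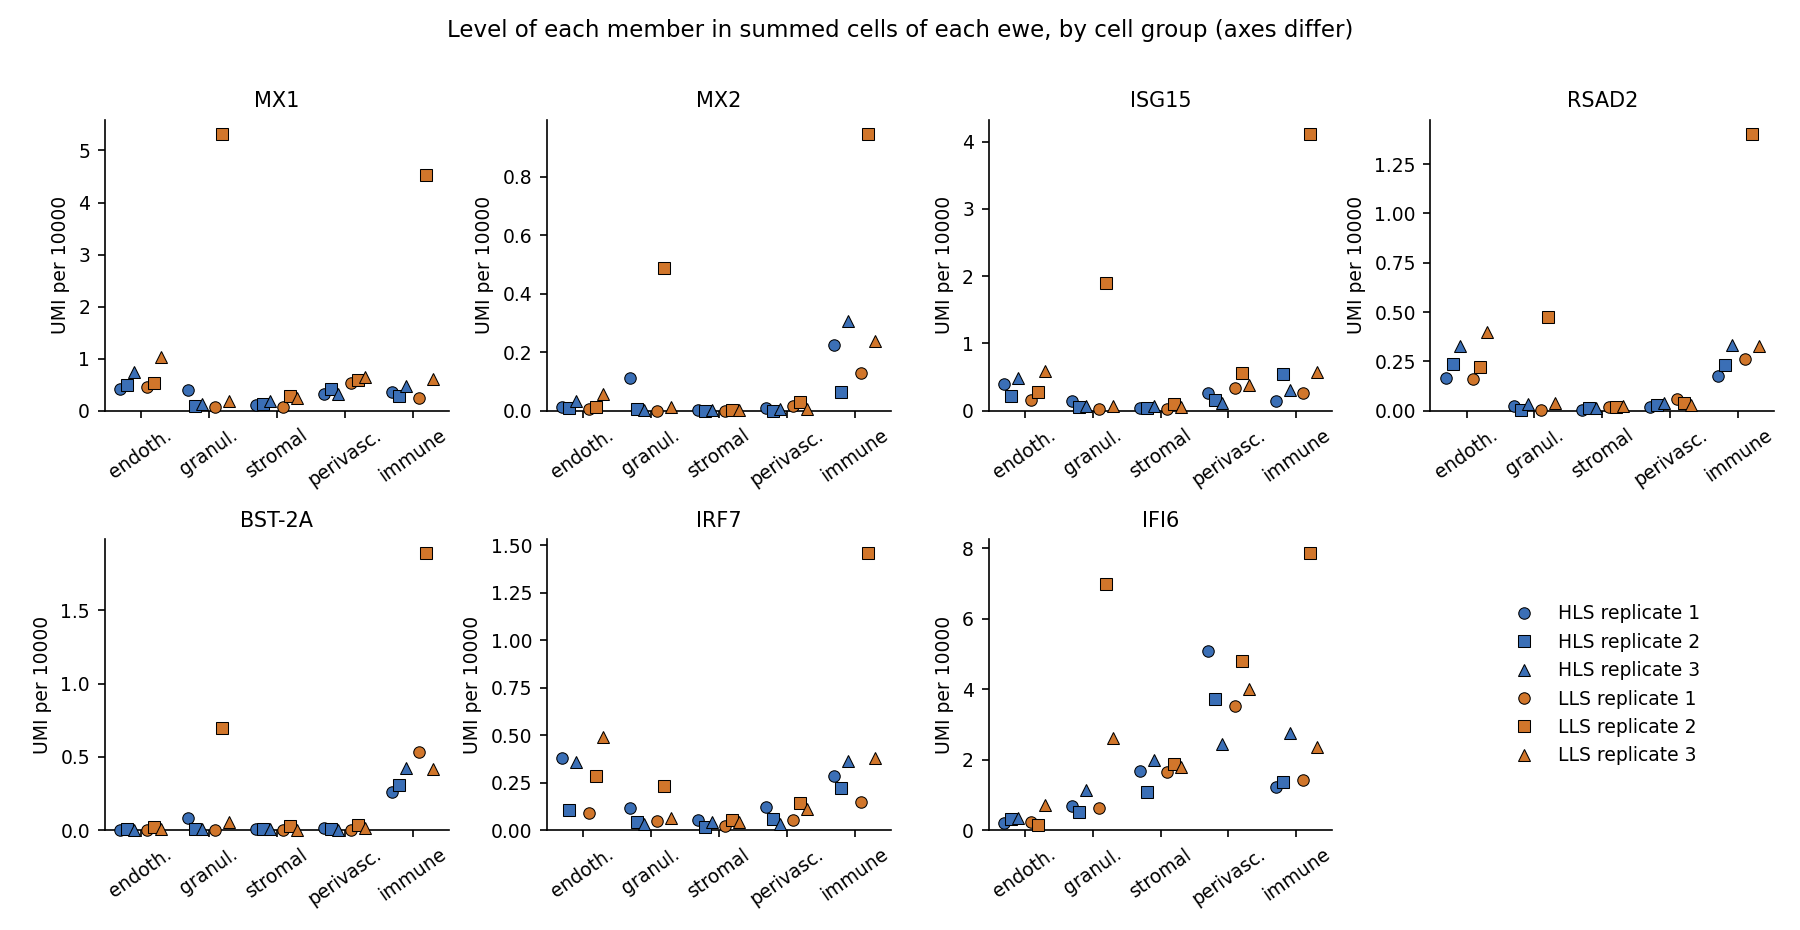
Level of each member in UMI per 10000 (vertical axes, which differ between panels) in the summed cells of each ewe, by cell group (horizontal axes). Points are ewes, blue for HLS and orange for LLS. LLS replicate 2 (orange squares) is the highest point for all 7 members in granulosa-like and in immune-like cells, and the IFI6 panel has its highest points outside those groups in perivascular-like cells, at 2.43 to 5.09.

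MX1 was detected more often in endothelial-like cells that held another member. It was detected in a median of 50.1% of cells with RSAD2 and 24.1% of cells without, and in 43.5% of cells with ISG15 and 23.2% without, and each comparison had the same direction in 6 of 6 ewes. Deeper cells show more genes of any kind, and the cells with at least 3 members had medians of 10056 to 24346 UMI against 3850 to 10166 in cells with none. The part of depth in these shares was not tested.

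Genes outside the set that were high in the same endothelial-like cells were ranked by their level per 10000 UMI in cells with at least 3 members against cells with none. The 10 leading genes were LOC101112122, LOC101102194, LOC105602911, KDM6B, CSF3, CA4, CXCL10, EPSTI1, LOC101118983 and CXCL9. Their mean log2 ratios over 6 ewes ran from 1.05 ± 0.98 (SD) for CXCL9, a chemokine of the interferon gamma response, to 1.44 ± 0.58 for LOC101112122, and 9 of the 10 were higher in 6 of 6 ewes. LOC101112122 and LOC105602911 are neighbours in the RefSeq table. In immune-like cells the 10 leading genes were CTSL, LOC100101238, GPNMB, LGMN, FOLR3, ASGR2, LOC101120093, LOC101113122, DMBT1 and SCIN, with CTSL and LGMN being lysosomal proteases. The macrophage-like cells carried the set more often than lymphocyte-like cells, so this second ranking mixes the 2 kinds. The endothelial ranking likewise mixes clusters. CXCL9, CSF3 and LOC101118983 were leading genes of cluster 3, and CA4 was a leading gene of cluster 2. The share with the set was 9.84% to 26.6% in cluster 3 and 0% to 1.69% in cluster 15. Over the 30 sums the genes most like the set were LOC101110181, LOC121816966, LOC114110196, LOC105602911, DUSP11, LOC101107908, LDHA, TGFB1, LOC101109077 and NR4A2, with mean Pearson correlations of 0.613 to 0.681.

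Of 125 symbols in the lists of the interferon pathway, 83 were found in the matrices besides the 7 members, and the OAS, IFITM and GBP symbols of the lists were not among them. Ligands had few counts. IFNG, interferon gamma, had 163 UMI, of which 154 lay in immune-like cells. IFNK had 360 UMI, with 108 in endothelial-like cells, and IFNE had 256 UMI, with 157 in granulosa-like cells. LLS replicate 2 held 20 of the IFNG, 47 of the IFNK and 69 of the IFNE UMI, and its IFNE level in cluster 14 was 0.0805 UMI per 10000, inside the 0.0128 to 0.0918 of the other ewes. The interferon tau genes IFNT5 and IFNT6 were in the matrices, with no UMI in any cell. The symbols IFNB1, IFNA1 and IFNL3 were not matched and are not analysed here.

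Receptors and signal transducers were present in every main group. IFNAR1, a chain of the type I receptor, averaged 1.10 ± 0.35 UMI per 10000 (SD, n = 6 ewes) in endothelial-like and 0.772 ± 0.293 in granulosa-like cells. IFNGR2 averaged 1.07 ± 0.13 in granulosa-like and 2.96 ± 0.83 in immune-like cells. JAK1 averaged 3.01 ± 0.45 in granulosa-like cells and 4.36 ± 0.83 in immune-like cells, and IRF1 3.81 ± 0.87 in perivascular-like cells. Among inhibitors, SOCS3 averaged 9.80 ± 0.86 in perivascular-like cells, 9.16 ± 1.40 in endothelial-like cells and 1.49 ± 0.39 in granulosa-like cells. B2M, the light chain of MHC class I, averaged 21.1 ± 2.3 in endothelial-like and 2.67 ± 0.64 in granulosa-like cells. IFIH1, a sensor of viral RNA, averaged 1.601 ± 0.576 in endothelial-like and 0.317 ± 0.343 in granulosa-like cells.

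In cluster 14 of LLS replicate 2 the members and nearly all counted genes of the list of other induced genes were raised. The interferon gamma type list is not part of these counts. All 7 members and 30 of the 32 other induced genes with at least 10 UMI stood above the 5 other ewes, against 12.4% of all 13649 genes. The floor of 10 UMI was taken over all ewes together, so a gene could pass it through LLS replicate 2 itself. These counts are therefore a description. The median log2 ratio to the median of the other ewes, with 0.05 UMI per 10000 added to both, was 4.01 for members, 1.21 for other induced genes and 0.02 for all genes. HERC6, a HECT-type ubiquitin ligase, was 0.697 against at most 0.0512, IFIT3 0.414 against at most 0.0256, DDX58 (the RNA sensor RIG-I) 0.569 against at most 0.0489 and IFIH1 1.36 against at most 0.267. Of the 9 signal transducers 4 were above all other ewes, among them STAT2 (0.291 against at most 0.168) and IRF9 (0.611 against at most 0.241). None of the 5 receptors was, and their list median was 0.13. The 6 genes named in this paragraph were picked after their values were seen.

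The lists moved differently in other cells of that ewe. In macrophage-like cells 7 of 7 members and 22 of 33 other induced genes stood above the other ewes, against 15.3% of all genes, with medians of 2.88 and 0.86, while 1 of 12 genes of the interferon gamma type did, with a median of -0.17. In endothelial-like cells 1 of 7 members, BST-2A, and 1 of 33 other induced genes stood above the other ewes, against 23.9% of all genes, with medians of -0.10 and 0.01. Members are in the rule that chose these genes, so their counts in LLS replicate 2 are a description.

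**Figure D4:**
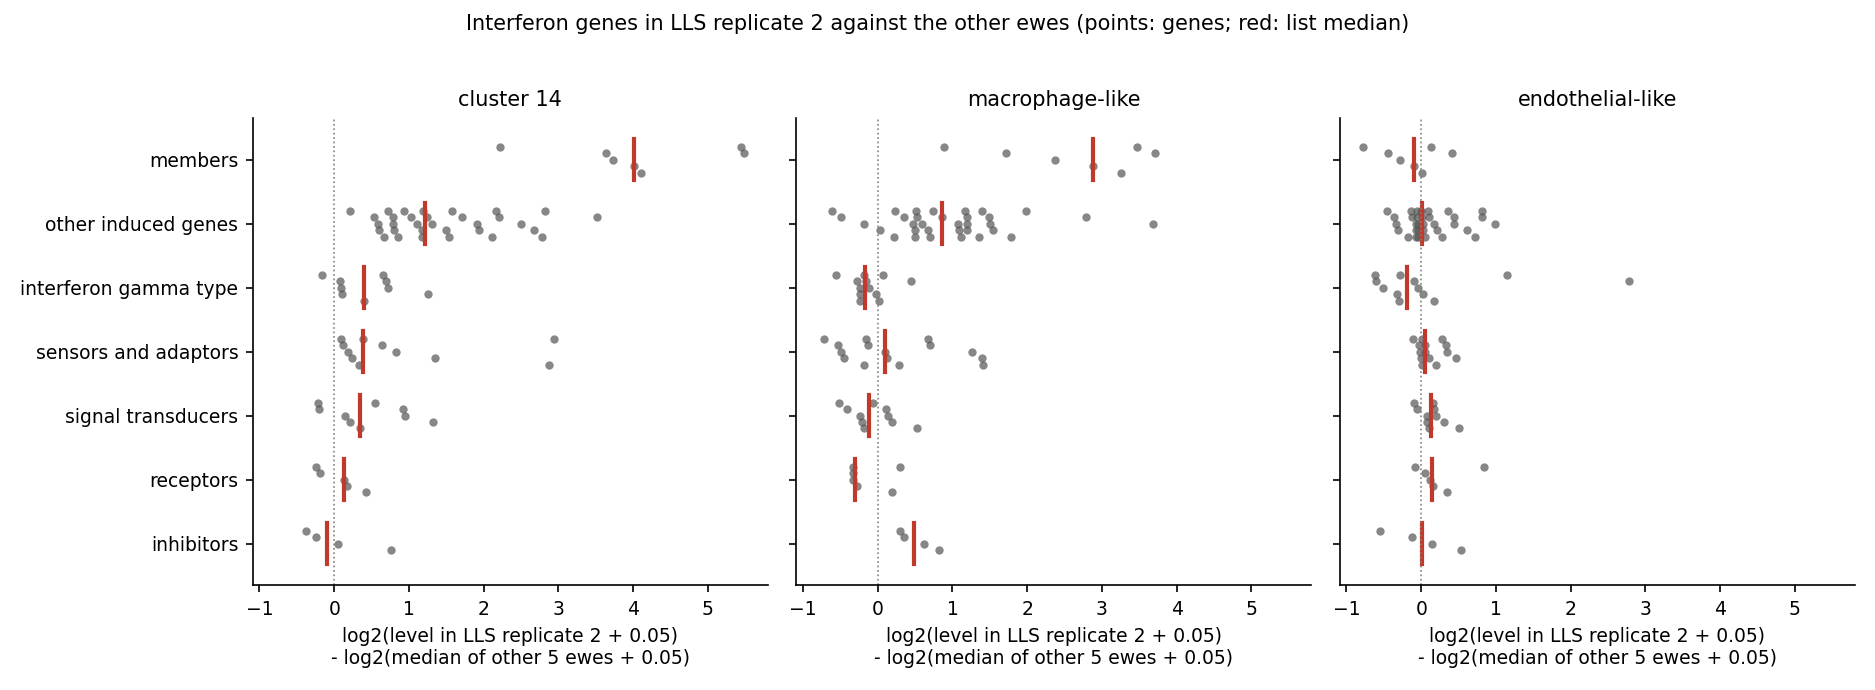
Difference of log2 level (UMI per 10000, 0.05 added) between LLS replicate 2 and the median of the 5 other ewes (horizontal axis) for genes of 7 interferon lists (vertical axis), in cluster 14, macrophage-like and endothelial-like cells. Points are genes with at least 10 UMI over all ewes and red lines are list medians, which for members lie at 4.01, 2.88 and -0.10.

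HLS was compared with LLS by edgeR's quasi-likelihood test on counts summed per ewe, with p-values adjusted by Benjamini-Hochberg over all genes tested. No member was called in any of 6 cell sets, and no gene was called at all, so the percentage called was 0 in each set. Members and gene lists were chosen with earlier results of these data known. Their counts with an unadjusted p under 0.05, here and below, are therefore a description. In all retained cells MX1 was 0.313, 0.349 and 0.350 UMI per 10000 in HLS and 0.388, 1.65 and 0.732 in LLS, with a log2 fold change of -1.29 (SE 0.45, edgeR adjusted p = 0.998). Every HLS ewe lay below every LLS ewe, as in 5.9% of all genes tested. MX1 and RSAD2 (log2 fold change -0.73, SE 0.27) were 2 of 7 members with an unadjusted p under 0.05, against 551 of 17951 genes (3.07%). DESeq2 called 81 genes there, none of them a member. Without LLS replicate 2 the values were -0.63 for MX1, -0.46 for RSAD2, 0.0024 for BST-2A (-2.24 with all ewes), -0.28 for MX2 (-1.82) and -0.23 for ISG15 (-1.02).

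In granulosa-like cells all 6 members tested were lower in HLS and none was called (MX2 did not pass the filter on low counts). The log2 fold change was -3.02 for MX1 (SE 1.38, edgeR adjusted p = 0.921), -2.82 for ISG15 (SE 1.24) and -2.95 for BST-2A (SE 1.42). IFI6 (-1.97, SE 0.71) and RSAD2 (-2.84, SE 1.14) were 2 of 6 with an unadjusted p under 0.05 by edgeR, against 594 of 11634 genes (5.11%). DESeq2 called 2 genes, no member among them. These values rest on LLS replicate 2. Without it the log2 fold changes were 0.90 for MX1, 0.99 for ISG15, 0.34 for BST-2A, 0.071 for RSAD2, 0.41 for IRF7 and -0.89 for IFI6, so 5 of 6 changed sign. HLS replicate 1 was then the highest ewe for MX1, at 0.396 UMI per 10000 against at most 0.182. Its 33 BST-2A UMI lay in 5 of 283 cells.

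Immune-like cells gave 4 of 7 members with an unadjusted p under 0.05, all lower in HLS, against 551 of 10173 genes (5.42%). The members were chosen with readings of these cells in view, so this count is a description. These were ISG15 (log2 fold change -2.29, SE 0.87, edgeR adjusted p = 0.884), MX1 (-2.20, SE 0.88, adjusted p = 0.884), BST-2A (-1.46, SE 0.52, adjusted p = 0.864) and RSAD2 (-1.38, SE 0.59, adjusted p = 0.884). DESeq2 called 32 genes, no member among them. When genes of low count were kept, edgeR called these 4 members, with adjusted p of 1.38e-05 for ISG15, 3.92e-05 for MX1, 0.00116 for BST-2A and 0.00567 for RSAD2, at nearly the same fold changes. Without LLS replicate 2 the values were -0.28 for ISG15, -0.090 for MX1, -0.43 for BST-2A and -0.16 for RSAD2, and MX2 (-1.07 with all ewes) and IRF7 (-1.14) changed sign to 0.26 and 0.27.

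Perivascular-like cells were the set in which MX1 and ISG15 did not depend on LLS replicate 2. MX1 was 0.326, 0.417 and 0.330 UMI per 10000 in HLS and 0.538, 0.593 and 0.649 in LLS. ISG15 was 0.259, 0.164 and 0.108 in HLS and 0.332, 0.562 and 0.388 in LLS. Every HLS ewe lay below every LLS ewe in both genes, as in 5.23% of all genes tested. The same held within cluster 8, where MX1 was 0.365, 0.528 and 0.510 in HLS and 0.623, 0.692 and 0.759 in LLS, and ISG15 at most 0.2996 in HLS and at least 0.372 in LLS. Cluster 8 is a part of the same cells, and the share of all genes that separate so within it was not computed. The log2 fold changes were -0.66 (SE 0.19) and -1.14 (SE 0.36), neither was called by edgeR (adjusted p = 0.9999 for both, and 0.850 to 1.0 when 1 ewe was left out), and without LLS replicate 2 they were -0.66 and -0.91. They were 2 of 4 members with an unadjusted p under 0.05, against 326 of 11017 genes (2.96%). IFI6 and IRF7, the other members tested, stood at -0.04 and -0.32. DESeq2 called 2 genes there, no member among them.

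Endothelial-like cells, which held the largest number of cells with the set, gave 0 of 7 members with an unadjusted p under 0.05, against 206 of 15155 genes (1.36%). The log2 fold changes ran from -1.18 for BST-2A (SE 0.65) to 0.21 for ISG15 (SE 0.51), with -0.24 for MX1 (SE 0.33). In stromal-like cells it was 0 of 6, against 650 of 14039 genes (4.63%), with values from -0.88 for RSAD2 (SE 0.52) to 0.059 for IRF7 (SE 0.53). DESeq2 called 5 and 2 genes in these sets, no member among them. Within endothelial-like cells LLS replicate 3 was the highest ewe for 6 of 7 members, and for 12.6% of all 18273 genes.

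**Figure D5:**
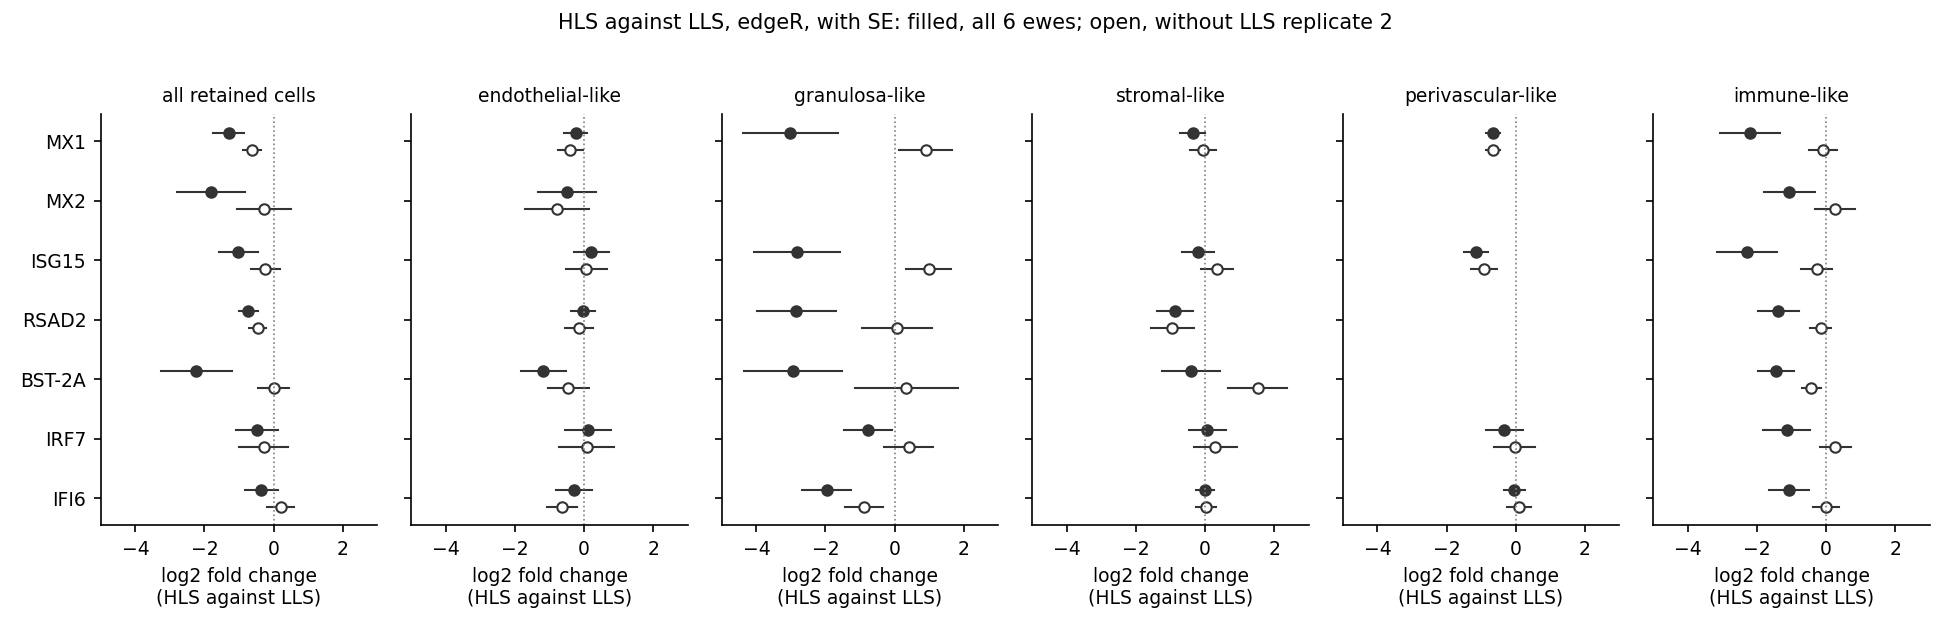
Log2 fold change of HLS over LLS for the members (horizontal axis, bars 1 SE) from edgeR in 6 cell sets, with all 6 ewes and without LLS replicate 2. In granulosa-like cells MX1 moves from -3.02 to 0.90, and in perivascular-like cells it stays at -0.66.

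Other genes of the pathway gave no call by edgeR in any of the 6 sets. Of other induced genes, 9 of 29 tested in immune-like cells had an unadjusted p under 0.05, all lower in HLS, against 5.42% of all genes, with IFIT3 (log2 fold change -2.01), IFI44 (-1.47) and IFIT2 (-1.44) the largest. In granulosa-like cells it was 9 of 23, all lower, with XAF1 (-1.62) and EIF2AK2 (-1.29) among them, against 5.11% of all genes. Without LLS replicate 2 the counts were 3 of 30 in immune-like and 1 of 23 in granulosa-like cells. Log2 fold changes were then -0.30 for IFIT3, -1.15 for IFI44, -0.85 for IFIT2, -0.025 for XAF1 and -0.15 for EIF2AK2. The shares of all genes in this paragraph are from fits with all ewes. Counts without LLS replicate 2 therefore have no share of all genes to be read against. The count of other induced genes was 6 of 33 in all retained cells, led by ISG20 (-1.76) and BST-2B (-1.08), against 3.07% of all genes. It was 7 of 33 without LLS replicate 2, with -0.99 for ISG20 and -0.70 for BST-2B. It was 2 of 24 in perivascular-like cells, against 2.96%, and 3 of 25 without that ewe, and it was 0 of 33 in endothelial-like cells, against 1.36%. In stromal-like cells 1 of 32, CXCL10, had such a p and was higher in HLS, at 1.37. IDO1, an enzyme of tryptophan breakdown in the interferon gamma response, was higher in HLS in all retained cells (1.27) and in immune-like cells (1.38, and 0.97 without LLS replicate 2). The interferon gamma type list gave 1 of 12 genes higher and 0 lower at such a p in all retained cells, against 3.07% of all genes. In immune-like cells it gave 1 of 12 higher and 2 lower, against 5.42%. Without LLS replicate 2 that list gave 0 of 12 higher in either set, with 0 lower in all retained and 1 lower in immune-like cells. Among sensors IFIH1 was lower in granulosa-like (-1.51, and -0.30 without LLS replicate 2) and perivascular-like cells (-0.86, and -0.60 without it), and among receptors IFNAR1 was lower in granulosa-like (-0.76) and stromal-like cells (-0.67). Of sensors 1 of 9 in granulosa-like, 1 of 8 in perivascular-like, 3 of 14 in immune-like and 1 of 15 in all retained cells had such a p. Of receptors it was 1 of 5 in granulosa-like cells, also without LLS replicate 2. In stromal-like cells it was 1 of 5 (0 of 5 without that ewe), where the share of all genes was 4.63%. Of signal transducers it was 1 of 10 in all retained and 1 of 9 in perivascular-like cells, and of inhibitors 1 of 4 in perivascular-like cells. All of these were lower in HLS.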

How the data were processed

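Single cells from 6 ewe ovaries were read as 10x Chromium 3′ libraries, 1 per ewe. The authors made the deposited matrices with Cell Ranger 5.0.0, and they hold raw UMI counts per gene and barcode. The genome build is not given in the sources used here. The study's limits on barcodes were applied: at least 200 genes, at least 1000 UMI, log10 genes per log10 UMI of at least 0.7, at most 10% mitochondrial and at most 5% haemoglobin UMI. Of 52290 barcodes 38464 passed. A simulated-doublet caller then removed 2007 (5.22%), which left 5189 to 7096 cells a ewe. Cells were clustered on 2000 variable genes and 30 components (Leiden, resolution 0.8) without the matched genes of the interferon lists. They were named from markers with a minimum score of 0.5. The scoring against the median cluster, and the joining of theca with stromal and of immune subtypes, were chosen after the clusters were seen.

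Levels are UMI per 10000 in the summed cells of a ewe. HLS and LLS were compared on counts summed per ewe with edgeR 4.0.16 (quasi-likelihood, filterByExpr, TMM factors, Benjamini-Hochberg over all genes tested, threshold 0.05) under R 4.3.3, with DESeq2 1.42.0 as an alternative. The scripts were tested on simulated data. Shares have 95% Clopper-Pearson intervals, which cover counting error only. Members and gene lists were chosen with earlier results of these data known. Named were the 7 members, pathway genes with an unadjusted p under 0.05 (at most 3 a direction) and the 2 highest genes of a list, and the 10 genes most like the members. Alternatives were the normalisation, the tool, the low-count filter, the replicate block, each ewe left out, doublets kept, a mitochondrial limit of 20%, other clusterings, and other member thresholds and depths for the shares. The member fold changes and the shares were not compared under the other clusterings. A result on 1 gene of the pathway is not reported here.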

Additional observations from a re-analysis of the deposited data

How the results depend on the processing

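No member was called in any of the 6 cell sets by edgeR with all genes of sufficient count. Of the recomputed member fold changes 401 kept their direction and their side of the threshold, 4 became calls and 39 changed sign. Other clusterings are not part of these counts, nor of the share differences below. DESeq2 called 81 genes over all retained cells, 32 for immune-like cells, 5 for endothelial-like cells and 2 each for granulosa-like, stromal-like and perivascular-like cells, against 0 by edgeR. With no filter on low counts edgeR called 189 genes for immune-like cells and 4 for perivascular-like cells, and without TMM factors 1 in immune-like cells; the cause was not tested. Leaving out 1 ewe gave 0 to 2 calls in endothelial-like, 0 to 1 in stromal-like, 0 to 1 in perivascular-like (each without LLS replicate 1) and 0 to 2 in immune-like cells (without HLS replicate 3 or LLS replicate 1).

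The replicate block gave 2 calls in immune-like cells and 0 elsewhere. Same-numbered ewes deviated with correlations of -0.0573, -0.305 and 0.0471 in all retained cells, so the numbers only name the ewes. Under the block IFI6 was 0.015 and RSAD2 0.059 in endothelial-like cells, and BST-2A 0.070 and IRF7 -0.10 in stromal-like cells.

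Some other changes of sign were of values near 0. IRF7 was -0.040 in endothelial-like and -0.14 in stromal-like cells without TMM factors, and -0.091 in stromal-like cells with doublets kept. IFI6 in stromal-like cells was 0.0039 with DESeq2, 0.013 with no filter and 0.021 at the 20% mitochondrial limit, and in perivascular-like cells 0.039 with doublets kept and 0.095 at that limit. Leaving out 1 ewe, BST-2A ran from -2.74 to 0.0024 in all retained, -5.36 to 0.34 in granulosa-like and -0.93 to 1.53 in stromal-like cells. IFI6 ran from -0.72 to 0.20 in all retained, -0.65 to 0.63 in endothelial-like, -0.39 to 0.22 in perivascular-like and -0.19 to 0.22 in stromal-like cells. IRF7 ran from -0.35 to 0.75 in endothelial-like, -1.67 to 0.41 in granulosa-like, -1.62 to 0.27 in immune-like and -0.42 to 0.45 in stromal-like cells. ISG15 ran from -0.14 to 0.89 in endothelial-like, -3.45 to 0.99 in granulosa-like and -0.52 to 0.36 in stromal-like cells. MX1 ran from -0.44 to 0.21 in endothelial-like and -4.05 to 0.90 in granulosa-like cells, MX2 from -1.10 to 0.95 in endothelial-like and -1.54 to 0.26 in immune-like cells, and RSAD2 from -0.27 to 0.45 in endothelial-like and -3.41 to 0.071 in granulosa-like cells.

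Differences in the share of cells with the set are given as HLS minus LLS in percentage points. That of perivascular-like cells moved from -3.88 to -7.42 for at least 2 members, where the ewes of the groups overlapped. It was -0.98 for at least 4 and -1.76 at 2000 UMI a cell. That of stromal-like cells moved from -0.40 to 0.36 for at least 2 members. That of endothelial-like cells went from 3.06 to -0.43 at 2000 UMI a cell, a move smaller than 1 SD between ewes. That of granulosa-like cells went from -9.12 to 0.55 and that of immune-like cells from -8.58 to -1.47 without LLS replicate 2. These moves were also smaller than 1 SD, but LLS replicate 2 itself widens that SD. It was 16.8 in LLS and 0.874 in HLS for granulosa-like cells, and 12.4 and 1.84 for immune-like cells. The SD therefore cannot judge the removal of that ewe.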

Other observations

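In the unnamed cluster 0 (4448 cells), led by ACTA2, TAGLN and CRABP1, the share with at least 3 members was 0.599% to 1.19% in HLS and LLS replicate 1, and 7.06% and 7.58% in LLS replicates 2 and 3. These cells are part of the values given for all retained cells.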
